A study of Mus musculus with 6 samples.

Results

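Nfe2, Nfe2l1 (NRF1), Nfe2l2 (NRF2), Nfe2l3 (NRF3), Bach1, Bach2, Keap1, Maff, Mafg and Mafk form the cap'n'collar transcription factor family with its small Maf partners and its cytoplasmic inhibitor. Their transcripts were measured in mouse inguinal fat by 15 of the 55681 non-control probes of an Agilent 1-colour array, taking every probe whose gene name equals one of the 10 genes, of 34844 gene names on the array. Of these, 14 probes were bright enough to be tested among 38460. The set was chosen by the measured signal of Nfe2l3, which was higher in the DIO_CR_WR arrays, so its difference is given as a description with no test. All samples came from male C57BL/6J mice, and the groups follow the sample titles. In the 3 samples titled DIO_CR_WR, mice aged 2 months received a diet with 60% of energy from fat for 1 month, lost weight on restricted calories for about 3 weeks down to the weight of chow-fed mice of their age, and then returned to the fatty diet without restriction and regained weight. The 3 samples titled DIO came from mice that were on chow until that point and ate the fatty diet only in that final stage, so every sample was taken at the end of a period of free fat feeding. The study's protocol names the groups differently: there the mice that regained weight are called DIO and the others controls. The age labels, 6 to 8 months in DIO and 9 to 11 months in DIO_CR_WR, rise in steps of 1 month along the sample list, so it is unclear whether they are true ages. If they are, age and group cannot be told apart. The labels do not say whether a sample came from 1 mouse or several, so any p-value measures only the spread between these samples.

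NRF1, NRF2, NRF3 and the blood cell factor NFE2 bind DNA as pairs with a small Maf protein (MAFF, MAFG or MAFK) at antioxidant response elements, short sequences in the control regions of genes for detoxification, glutathione synthesis and proteasome subunits. BACH1 and BACH2 pair with the same small Mafs at the same elements and repress them, and heme releases BACH1 from DNA. KEAP1 holds NRF2 in the cytoplasm and hands it to a ubiquitin ligase built on CUL3, so much of the control of NRF2 acts on the protein and is not visible in its transcript. NRF1 and NRF3 are made as membrane proteins of the endoplasmic reticulum, and NRF1 raises proteasome genes when proteasome activity is low. In fat, NRF2 is known for its part in the differentiation of fat cells and NRF1 for the proteasome activity that brown fat cells need in the cold.

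The sequences of 5 probes are shown first, because 4 of them lie in protein-coding sequence and the Nfe2l3 result turns on which of its 2 probes is read. All are printed 5′ to 3′ as the array files give them, with positions on mouse build mm9. The first Nfe2l3 probe reads position 1907 of the RefSeq transcript, at chr6:51408131-51408190 on the plus strand, in the part that codes for the DNA-binding basic leucine zipper. The second Nfe2l3 probe was designed to a separate Ensembl transcript, at chr6:51386734-51386793, and starts 21397 bases before the first. The Nfe2l1 probe, at chr11:96680710-96680769 on the minus strand, lies in the leucine zipper region as well. The Keap1 probe codes for part of the Kelch repeats that bind NRF2, and its 60 bases span chr9:21035292-21035732 on the minus strand, 441 bases of genome, so it crosses a splice junction. The Bach2 probe at chr4:32588782-32588841 codes for part of the BTB domain, through which BACH proteins meet each other and their co-repressors.
Nfe2l3, RefSeq transcript: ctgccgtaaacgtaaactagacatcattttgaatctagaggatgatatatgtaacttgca
Nfe2l3, Ensembl transcript: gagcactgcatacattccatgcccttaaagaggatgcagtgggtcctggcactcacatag
Nfe2l1: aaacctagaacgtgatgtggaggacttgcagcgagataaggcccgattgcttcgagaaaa
Keap1: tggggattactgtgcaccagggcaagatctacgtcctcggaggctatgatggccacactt
Bach2, BTB domain: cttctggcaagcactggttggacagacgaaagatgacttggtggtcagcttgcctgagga

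Signals are given as a percentage of the 75th percentile of the non-control spots of the same array, which was 4605 to 4991 intensity units in DIO and 6050 to 7126 in DIO_CR_WR. In DIO 69.1% to 79.7% of these spots rose well clear of background, in DIO_CR_WR 52.9% to 66.7%. Negative control spots had an SD of 4.45 to 6.18 intensity units in DIO and 7.63 to 28.6 in DIO_CR_WR. Slide 1 held DIO replicate 1 with the 3 DIO_CR_WR arrays and slide 2 held the other DIO arrays, so a comparison within a slide is 1 DIO array against 3 DIO_CR_WR arrays. Differences are on the log2 scale and positive where DIO_CR_WR was higher, with standard errors (SE) from the limma model fitted to all probes. The median difference of all 38460 probes was −0.19, so a probe that follows the array lies slightly below 0, and it was 0.31 when arrays were scaled to spike-in RNA. The inguinal fat label was met by the adipocyte markers: adiponectin (Adipoq) read from 1801% to 3835% across the 6 arrays. Skeletal muscle markers were also bright, with a mean for Ckm, muscle creatine kinase, of 2553% on the DIO and 1762% on the DIO_CR_WR arrays. As these are bulk samples, fewer cells of a type and less RNA per cell cannot be told apart.

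Nfe2l3, the least studied of the NRF factors, was higher on each DIO_CR_WR array than on any DIO array. Its RefSeq probe read 1.62%, 3.17% and 1.63% on DIO replicates 1 to 3 and 10.4%, 14.4% and 15.7% on DIO_CR_WR replicates 1 to 3. The DIO arrays were thus all near the bottom of the measured range, with replicate 2 above the others, and the groups did not overlap. In the intensity units of the scanner the probe read 80.9, 149.8 and 75.1 on the DIO arrays and 739, 990 and 951 on the DIO_CR_WR arrays, and it was well above background on each. The mean was 2.14% ± 0.89 in DIO and 13.5% ± 2.8 in DIO_CR_WR (SD, n = 3), and the difference was 6.55-fold (log2 2.71 ± 0.32 SE). The smallest ratio between a DIO_CR_WR and a DIO array was 3.27 and the largest 9.70. This difference chose the set of genes, so these values describe the arrays and support nothing further. With the slide as a block the log2 difference was 3.04, which is also the value of slide 1 alone.

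The second Nfe2l3 probe did not show this difference. It read 1.1%, 1.21% and 1.79% on the DIO arrays and 1.11%, 1.02% and 0.91% on the DIO_CR_WR arrays, was well above background on 2 DIO arrays and 0 DIO_CR_WR arrays, and was not tested. Its values were dim in both groups, and the groups overlapped. The higher signal was thus seen at the probe for the RefSeq transcript, and the Ensembl transcript was not well above background on most arrays.

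**Figure D1:**
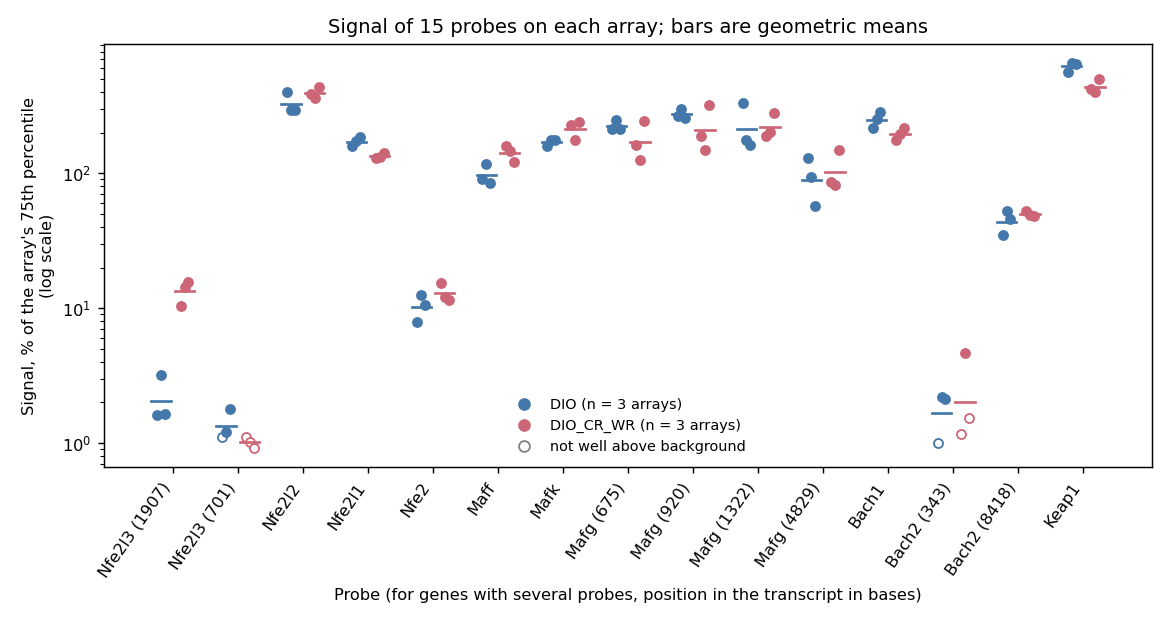
Signal of each of the 15 probes on each array, as a percentage of the array's 75th percentile on a log scale. Points are arrays (3 DIO, blue, and 3 DIO_CR_WR, red), open points were not well above background, and bars are geometric means; numbers beside a gene name are the probe's position in its transcript. Nfe2l3 at position 1907 has its red points at 10.4% to 15.7% and its blue points at 1.62% to 3.17%, and no other probe has groups so far apart.

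Nfe2l2 encodes NRF2, the main activator of the antioxidant response. It read 403%, 297% and 293% on DIO replicates 1 to 3 and 387%, 361% and 434% on the DIO_CR_WR arrays. The DIO array on slide 1 was higher than those on slide 2 and lay inside the DIO_CR_WR range, so the groups overlapped. The log2 difference was 0.27 ± 0.19 SE (limma adjusted p = 0.40), with a 95% interval of −0.19 to 0.72, and it was −0.03 with the slide as a block or on slide 1 alone. With arrays scaled to spike-ins it was 0.76, where the median of all probes was 0.31. With another background correction (normexp) it was 0.54. The groups did not overlap in either of these scalings.

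Nfe2l1 encodes NRF1, the activator of proteasome genes. It read 159%, 173% and 184% on the DIO arrays and 131%, 132% and 140% on the DIO_CR_WR arrays. Every DIO_CR_WR array was below every DIO array, by a log2 difference of −0.35 ± 0.15 SE that did not pass limma's test (adjusted p = 0.19). With the slide as a block it was −0.24, and with arrays scaled to spike-ins it was 0.15 and the groups overlapped. Relative to the median of all probes it was −0.16. Nfe2 encodes the blood cell factor that drives platelet formation. It read 7.87%, 12.5% and 10.6% on the DIO and 15.3%, 12.1% and 11.5% on the DIO_CR_WR arrays, which overlapped. Its log2 difference was 0.34 ± 0.23 SE (limma adjusted p = 0.37), and 0.71 with the slide as a block, since the DIO array on slide 1 was the lowest of the 6.

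Of the small Mafs, which have no activation domain of their own, Maff had the larger difference. It read 91.2%, 118% and 85.2% on the DIO and 158%, 147% and 120% on the DIO_CR_WR arrays. The groups did not overlap, although DIO replicate 2 and DIO_CR_WR replicate 3 were nearly level. The log2 difference was 0.54 ± 0.20 SE (1.45-fold) and did not pass limma's test (adjusted p = 0.17), and it was 0.63 with the slide as a block. Mafk read 158%, 178% and 175% on the DIO and 229%, 175% and 240% on the DIO_CR_WR arrays. Here DIO_CR_WR replicate 2 sat within the DIO range, and the log2 difference was 0.32 ± 0.18 SE (limma adjusted p = 0.29), and 0.43 with the slide as a block.

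Mafg was read by 4 probes on chromosome 11 that did not give 1 answer. The probes at chr11:120490566-120490625 and chr11:120490321-120490380 had log2 differences of −0.40 ± 0.27 and −0.40 ± 0.30 SE. Those at chr11:120489919-120489978 and chr11:120486465-120486524, further along the minus strand and so nearer the end of the transcript, had 0.06 ± 0.32 and 0.20 ± 0.37 SE. In the first pair DIO_CR_WR replicate 3 (244% and 321%) stood above replicates 1 and 2, which read 161% and 125% at the first position and 188% and 149% at the next. In the pair nearer the end, DIO replicate 1 (331% and 131%) stood above DIO replicates 2 and 3, which read 178% and 162% at the former and 93.6% and 56.9% at the latter. With the slide as a block that pair was at −0.59 and −0.36, on the same side as the other pair at −0.33 and −0.37. With spike-in scaling the first pair was at 0.10 for each probe. The groups overlapped at all 4 probes.

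Of the repressors, Bach1 read 216%, 253% and 284% on the DIO and 176%, 197% and 217% on the DIO_CR_WR arrays. The lowest DIO array and the highest DIO_CR_WR array were level. The log2 difference was −0.35 ± 0.18 SE (limma adjusted p = 0.26), −0.14 with the slide as a block and 0.15 with spike-in scaling. BACH2 is best known from B and T lymphocytes, and its gene was read by 2 probes. The probe at chr4:32673009-32673068 read 34.9%, 52.1% and 45.8% on the DIO and 52.3%, 49.5% and 48.5% on the DIO_CR_WR arrays, a log2 difference of 0.20 ± 0.19 SE (limma adjusted p = 0.54) and 0.52 with the slide as a block. The BTB domain probe was near background, at 0.99%, 2.19% and 2.12% on the DIO and 1.16%, 4.67% and 1.53% on the DIO_CR_WR arrays. DIO_CR_WR replicate 2 stood out there, and without it the log2 difference went from 0.28 ± 0.58 SE to −0.32, while without DIO replicate 1 it was −0.092. With the slide as a block the BTB domain probe was at 1.02 ± 0.78 SE.

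Keap1, the inhibitor of NRF2, read 567%, 656% and 645% on the DIO and 419%, 404% and 499% on the DIO_CR_WR arrays. All DIO_CR_WR arrays lay below all DIO arrays. The log2 difference was −0.50 ± 0.16 SE, 1.42-fold lower, which did not pass limma's test (adjusted p = 0.15). With the slide as a block it was −0.37. Under spike-in scaling it was −0.00 and the groups overlapped, and relative to the median of all probes it was −0.31.

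Across the 9 genes other than Nfe2l3, 0 of 13 tested probes passed limma's test at an adjusted p under 0.05, as did 0% of all probes. At an unadjusted p under 0.05 there were 2 of 13, Maff higher and Keap1 lower, beside 26.1% of all probes, 5.34% higher and 20.8% lower. The groups did not overlap at 3 of 13 probes, 1 higher (Maff) and 2 lower (Keap1 and Nfe2l1), beside 32.9% of all probes, 7.29% higher and 25.6% lower. The combined and the lower counts are under those shares, and the higher count of 1 is near them. The balance of higher and lower turned with the scaling. Probes without overlap were 4 higher and 2 lower with median centring (8.4% and 21.1% of all probes), 3 and 2 with quantile normalization (9.87% and 19.8%), and 3 and 2 with normexp correction (9.1% and 20.6%). With spike-in scaling they were 5 and 0 (25.1% and 4.89%). Maff was among the higher probes in each of the 5 scalings, and whether the members' share differs from that of all probes was not tested. The 13 differences ran from −0.50 to 0.54 with a median of 0.20, where the median of all probes was −0.19. Of the 13, 8 lay above the median of all probes and the others below. Relative to it, Maff was at 0.73, Nfe2 at 0.53, Mafk at 0.51, Nfe2l2 at 0.45 and Bach1 at −0.16.

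**Figure D2:**
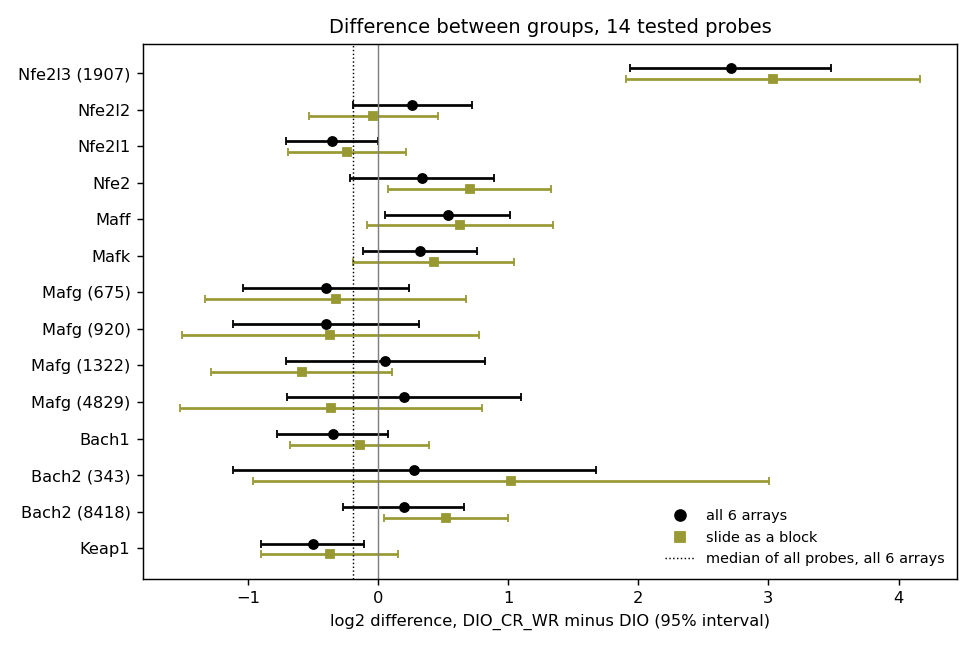
Log2 difference, DIO_CR_WR minus DIO, of the 14 tested probes, with 95% intervals of limma's model. Black circles use all 6 arrays, olive squares add the slide as a block, and the dotted line is the median of all probes at −0.19. Nfe2l3 lies at 2.71 and 3.04, while the other probes lie between −0.59 and 1.02 in the 2 fits, with spike-in scaling (not drawn) moving Bach1, Nfe2l1 and a pair of Mafg probes above 0; the Nfe2l3 intervals are descriptive, as its value chose the set.

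The promoters of the members were searched for the antioxidant response element itself, since several genes of the family are known to be regulated through it. RefSeq promoter windows on build GRCm38.p6, each from 250 bases before a transcription start to 50 after it, held 15 windows for 9 of the genes. The element's core was searched as TGACNNNGC on both strands. It was found in 4 of the 15 windows (26.7%), in 12 of 41 windows of NRF2 target genes (29.3%) and in 4071 of 32851 windows of all genes (12.4%). Windows of 1 gene can overlap. The 4 matches are shown with 10 bases on each side, the matched letters in capitals, on the strand of the gene. The Nfe2l2 match starts at position −240 from the start site (chr2:75704885-75704913), that of Maff at −112 (chr15:79346499-79346527), that of Mafk at −13 (chr5:139791513-139791541) and that of Mafg at −222 (chr11:120633751-120633779). In Mafk and Mafg the match is on the opposite strand.
Nfe2l2: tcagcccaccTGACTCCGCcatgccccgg
Maff: gggcgtctcaTGACTCTGCcactggaaag
Mafk: gatcccggaaGCGGTGTCAgtactgggga
Mafg: ctctgcaggaGCACGGTCAacccggcgag

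The Nfe2l3 window had no match to these letters. The AP-1 site, TGANTCA, whose letters can overlap those of the element, was in 0 of the 15 windows, 7 of the 41 windows of NRF2 target genes (17.1%) and 7.81% of all windows. A match is a description of the sequence, and the transcript values above do not say whether a factor was bound there.

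Genes around the family were read from 7 lists, with 1 probe per gene, the brightest of 26180 genes. None passed limma's test at an adjusted p under 0.05 (0 called, as in 0% of all genes). At an unadjusted p under 0.05 the share of all genes was 26.3%, with 5.31% higher and 21% lower. The groups did not overlap at 33.8% of all genes, 7.25% higher and 26.5% lower, and the median difference of all genes was −0.20. NRF2 target genes serve glutathione, thioredoxin, NADPH and detoxification. Of 38 tested, 2 higher and 5 lower genes reached an unadjusted p under 0.05, with a median of −0.17. The higher count was near the share of all genes and the lower count was under it. Glutathione reductase (Gsr) read 511%, 315% and 343% on the DIO and 583%, 711% and 717% on the DIO_CR_WR arrays, a log2 difference of 0.81 ± 0.23 SE (limma adjusted p = 0.14). Glutathione S-transferase pi 1 (Gstp1) read 1290%, 1742% and 1699% against 955%, 860% and 995%, a log2 difference of −0.74 ± 0.18 SE (limma adjusted p = 0.13). For both genes the groups did not overlap.

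Of 6 textbook targets, named after their values were seen, 4 had log2 differences above 0 and 2 below, and none passed limma's test after adjustment. Gclm, the modifier subunit of the enzyme that makes the glutathione precursor, read 196%, 109% and 71.1% on the DIO and 209%, 228% and 251% on the DIO_CR_WR arrays, a log2 difference of 1.00 ± 0.37 SE (limma adjusted p = 0.16). The groups did not overlap, but DIO replicate 1 on slide 1 was close to the DIO_CR_WR arrays and the DIO arrays of slide 2 were the low ones. Its catalytic partner Gclc had 0.71 ± 0.38 SE, with low values on DIO replicates 2 and 3 (97.0% and 74.5%) and 213% on replicate 1, above the 179% to 195% of the DIO_CR_WR arrays. Heme oxygenase Hmox1, a gene that BACH1 represses, had 0.51 ± 0.32 SE and sulfiredoxin Srxn1, which repairs oxidised peroxiredoxins, 0.33 ± 0.21 SE. The quinone reductase Nqo1 had −0.64 ± 0.27 SE and thioredoxin reductase Txnrd1 −0.19 ± 0.17 SE, and the groups overlapped for the targets other than Gclm. Catalase (Cat), which removes hydrogen peroxide and was also named after its values were seen, read 2184%, 3635% and 5105% on the DIO and 1714%, 1679% and 1574% on the DIO_CR_WR arrays, a log2 difference of −1.05 ± 0.31 SE.

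Genes that set the turnover of NRF2, through KEAP1 and CUL3 or through GSK3 and TrCP, had 0 higher and 1 lower of 20 at an unadjusted p under 0.05 and a median of −0.13. The lower one was Sqstm1 (p62), the autophagy receptor that binds KEAP1, which read 1514%, 2528% and 2080% on the DIO and 1259%, 1206% and 1488% on the DIO_CR_WR arrays, a log2 difference of −0.61 ± 0.23 SE. Palb2, a partner of KEAP1 with a binding motif like that of NRF2, had 0.41 ± 0.18 SE. Of 13 processing and turnover factors of NRF1 and NRF3, 0 were higher and 2 lower, with a median of 0.02. Relative to all genes that median was 0.21, and −0.05 with the slide as a block. The lower ones were Ubxn1, a cofactor of VCP, at −0.50 ± 0.15 SE, and Vcp, the ATPase that pulls NRF1 out of the membrane, at −0.54 ± 0.17 SE.

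Proteasome subunits, which NRF1 activates, had 12 lower and 0 higher of 32 at an unadjusted p under 0.05, and 19 lower with no overlap between the groups, where the same held for 26.5% of all genes. Their median was −0.35, which lies above 0 with spike-in scaling, as that adds 0.50 to every difference. The lid subunit gene Psmd7 read 1070%, 1223% and 1402% on the DIO and 710%, 673% and 825% on the DIO_CR_WR arrays, a log2 difference of −0.74 ± 0.18 SE (limma adjusted p = 0.13). Psma2, a subunit of the core's outer ring, read 1201%, 1230% and 1159% against 816%, 805% and 860%, a log2 difference of −0.53 ± 0.14 SE (limma adjusted p = 0.13). Both genes had all DIO_CR_WR arrays below all DIO arrays, and they were named for having the smallest p of the list. Whether the proteasome genes follow Nfe2l1 was not tested. Relative to all genes the median of the proteasome list was −0.16, and 0.00 with quantile normalization.

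BACH1 partners and heme genes had 0 higher and 2 lower of 15 at an unadjusted p under 0.05 and a median of −0.12. Relative to all genes that median was 0.08, and 0.27 with the slide as a block. Fech, which completes heme synthesis, had a log2 difference of −0.57 ± 0.17 SE and the transferrin receptor Tfrc −0.52 ± 0.18 SE. Large Mafs, Fos and Jun proteins and cofactors had 4 higher and 5 lower of 20 and a median of −0.23. Junb read 34.9%, 39.9% and 40.8% on the DIO and 55.1%, 68.3% and 68.1% on the DIO_CR_WR arrays, a log2 difference of 0.72 ± 0.17 SE, and Fosl2 had 0.55 ± 0.17 SE. NFE2 targets with platelet and red cell genes had 1 higher and 1 lower of 16 and a median of 0.04. Relative to all genes that median was 0.24, and 0.05 with the slide as a block. The higher one was Fli1, a transcription factor of platelet precursors and vessel cells, at 0.87 ± 0.23 SE, and the lower one Gp1bb, a platelet receptor chain, at −0.78 ± 0.30 SE.

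**Figure D3:**
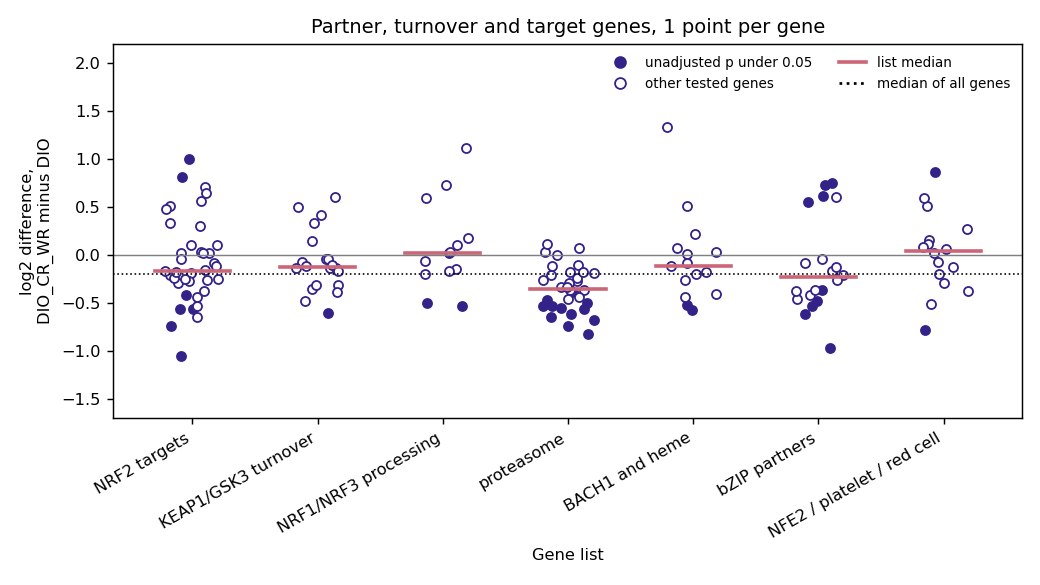
Log2 difference, DIO_CR_WR minus DIO, of each tested gene of the 7 lists (1 point per gene). Filled points had an unadjusted p under 0.05 in limma, red bars are list medians and the dotted line is the median of all genes at −0.20. The proteasome list has its median at −0.35 with 12 of 32 points filled below 0 and 0 above (with spike-in scaling, not drawn, every point lies 0.50 higher). The NRF2 targets have 2 of 38 filled above 0 and 5 below. Among all genes the shares are 5.31% higher and 21% lower.

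The genes whose pattern over the 6 arrays was closest to that of the Nfe2l3 RefSeq probe were found by the root mean square (RMS) difference between centred log2 values over all tested probes. The 5 closest were Tex13a (RMS difference 0.34), a testis gene well above background on 1 DIO and 2 DIO_CR_WR arrays, Serpina3k (0.46), the neutrophil chemokine Cxcl5 (0.49), well above background on 2 arrays of each group, Serpina3i (0.52) and Serpina3m (0.52). Their log2 differences were 2.25, 2.04, 2.88, 3.00 and 1.97, in that order. The Serpina3 genes encode secreted protease inhibitors, lie in a cluster of near copies, and their probes may share signal. Serpina3m read 80.5%, 117% and 103% on the DIO and 234%, 373% and 672% on the DIO_CR_WR arrays. The 5 genes were chosen by these same 6 arrays, so a shared order of the arrays is part of that choice.

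**Figure D4:**
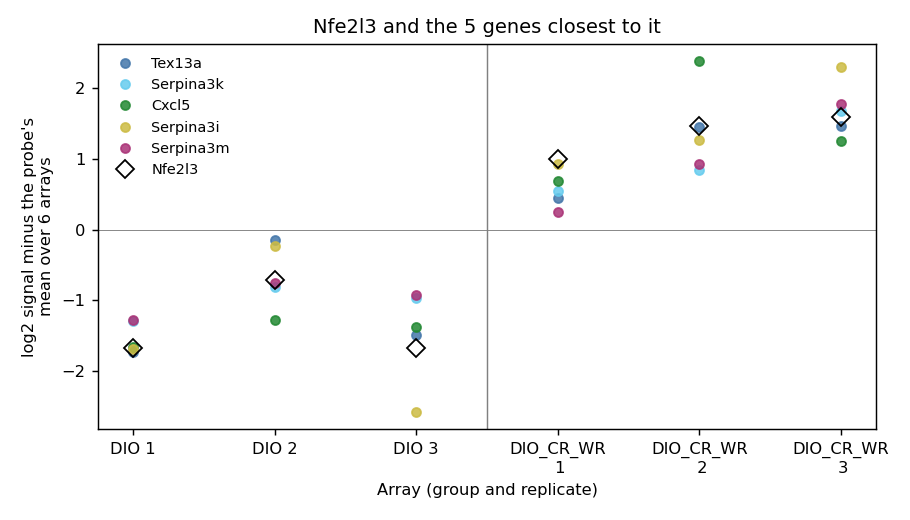
Log2 signal of Nfe2l3 (open diamonds) and of the 5 genes with the smallest RMS difference from it (coloured points) on each array, after subtracting each probe's mean over the 6 arrays. All 6 genes lie below 0 on the DIO arrays and above 0 on the DIO_CR_WR arrays; the genes were chosen for this likeness.

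Counts of cell type markers at an unadjusted p under 0.05 are to be read beside the 5.31% of all genes higher and 21% lower, and 0 markers passed after adjustment. Among the marker lists, that of T cells had the largest median difference, 1.20. Of 9 tested, 5 had an unadjusted p under 0.05 in limma, all of them higher in DIO_CR_WR. The summed signal of the list overlapped, at 109% to 221% on the DIO and 193% to 325% on the DIO_CR_WR arrays. It also overlapped without Cd2, the brightest (73.0% to 166% and 145% to 241%). Cd3g and Cd3d, chains of the T cell receptor complex, were at 1.61 ± 0.38 and 1.69 ± 0.46 SE. The groups overlapped for Cd8b1 (1.71) and Lck (1.20), which were among the 5. They also overlapped for Cd3e (0.84), Cd2 (0.41), Cd247 (0.29) and Cd4 (−0.10). B cell markers had 2 higher and 0 lower of 6 tested (Fcrla and Cd79b), and a summed signal of 281% to 618% in DIO and 427% to 473% in DIO_CR_WR. Most of that sum was Cd22, whose own signal overlapped between the groups. The other 5 markers summed to 24.3% to 47.4% in DIO and 55.3% to 112% in DIO_CR_WR, without overlap. The brightest of the 5 was Cd79b, at 10.6% to 24.8% and 32.3% to 73.3%, while Ms4a1, Blk and Pax5 overlapped. Cd79a, a chain of the B cell receptor complex, was too dim to be tested. Macrophage markers had 2 higher (Msr1 and Mrc1) and 0 lower of 10, with summed signals of 5057% to 7804% and 5713% to 6890%. Without Itgam, the brightest of them, the sums were 3107% to 5103% and 4173% to 4538%, which also overlapped. Mast cell markers had 2 higher (Fcer1a and Cpa3) and 0 lower of 7, with 413% to 508% and 496% to 599%, or 237% to 287% and 328% to 419% without Mcpt4, the brightest of them. Neutrophil markers had 2 higher and 3 lower of 10, red cell and platelet markers 0 and 0 of 8, and endothelial markers 2 and 0 of 6. The neutrophil sums overlapped, at 1844% to 1901% in DIO and 1720% to 1921% in DIO_CR_WR. Csf3r, the brightest neutrophil marker, was lower in DIO_CR_WR (935% to 1418% and 745% to 867%). The others summed to 483% to 909% and 971% to 1065%. Lymph node stroma markers had 2 and 2 of 5, and fibroblast markers 1 and 0 of 7. The lymph node sums did not overlap (412% to 468% in DIO and 491% to 768% in DIO_CR_WR). Without Cxcl13, the brightest, they did (302% to 371% and 258% to 305%). Endothelial, fibroblast, and red cell and platelet sums overlapped. Adipocyte markers had 0 higher and 3 lower of 10, brown fat markers 0 and 2 of 5, skeletal muscle markers 0 and 3 of 7 and epithelial markers 0 and 2 of 7. Skeletal muscle sums did not overlap (12859% to 15195% in DIO and 8479% to 11719% in DIO_CR_WR). The same held without Acta1, the brightest (9171% to 10228% and 6511% to 7611%). Brown fat sums did not overlap (2445% to 4072% and 1939% to 2358%), but did without Cox7a1. Adipocyte sums overlapped (18483% to 22030% and 16156% to 19314%). Without Fabp4, the brightest, they did not (15409% to 18748% and 13870% to 14840%). Epithelial sums overlapped. No marker list was tested against all genes. The part of these cell types in the Nfe2l3, Maff and Keap1 values was not tested.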

How the data were processed

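RNA of 6 samples was hybridised to 1-colour Agilent arrays of design 028005, 1 array per sample. Per the file headers, the authors' deposited processed intensity had a local background with a spatial trend subtracted, a brightness trend corrected and surrogate values set near background, with no scaling between arrays. The deposited files also give the raw mean intensity, the local background and flags of 0 or 1 per spot. The submitters' processing notes name Feature Extraction 10.7.1.1 and the file headers 10.7.3.1. A series-wide table (18 value columns) was left aside, since its column headings could not be matched to sample titles.

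In R 4.3.3 with limma 3.58.1, control spots (3671) were set aside, spots flagged as outliers were dropped, and spots of a probe were averaged on the log2 scale. Each array was scaled to its 75th percentile. Probes were kept if 3 or more of the 6 arrays read them well above background (38794), and 334 with an outlier flag on some array were left out, leaving 38460, each tested as its own row. The groups were compared with lmFit and eBayes of limma (two-sided), and p-values were adjusted over all probes by Benjamini-Hochberg, at 0.05, and the code was tested on simulated data. No spot was saturated (0). The number of arrays limits precision. Slides were read from the array files.

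The members and all lists were chosen with earlier results of these data known. Named genes are all members, the 2 of each pathway list with the smallest p (up to 4 past the threshold), Adipoq and the 5 genes closest to Nfe2l3; others are said to be chosen after their values were seen, and marker genes are named only where they bear on a result. No label states a pairing. The deviations of same-numbered arrays from their group means correlated at 0.00, −0.13 and −0.21 over probes, which are not independent replicates, so no block was used. Alternatives were other scalings, background correction and filters, other probe summaries, a robust variance with a trend, blocks for slide or replicate number, age as covariate, a threshold of 0.1 and leaving out each array.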

Additional observations from a re-analysis of the deposited data

How the results depend on the processing

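The count of probes past an adjusted p of 0.05 was 0 in limma, with 2055 higher and 7986 lower by the unadjusted p at 0.05. It was 6 with spike-in scaling and 46 when signal was required on all 6 arrays, where the lower counts were 1131 and 5316, and the higher count with spike-ins was 7985. In each of these 2 settings 1 member probe passed, that of Nfe2l3, which chose the set. The lower count was 5225 with quantile normalization, 2165 with the slide as a block and 1802 on slide 1 alone, and the higher count was 7753 without the filter. Leaving out each array gave 0 to 5370 probes past the adjusted threshold, 1155 to 3373 higher and 3359 to 10541 lower, and 0 to 1 member probes. The 5370 came without DIO replicate 1, where the groups lie on different slides and cannot be told apart from them. The lowest counts came without DIO replicate 2, and the lower count was 5285 without DIO replicate 3, 5016 without DIO_CR_WR replicate 1 and 5068 without DIO_CR_WR replicate 2, where the higher count was 1352. With the replicate number as a block 0 probes passed (unadjusted, 1811 higher and 6996 lower), and it changed no call.

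Nfe2l3 kept its direction in every alternative run, from 2.07 with normexp correction to 3.21 with spike-in scaling, and from 2.55 to 3.03 without each array. With age as a covariate (if the labels are true ages) it was 2.26 ± 0.69 SE. The groups share no age label, so that fit cannot tell age from group. Maff, Mafk, Nfe2 and Keap1 also kept their direction in every run, Keap1 at −0.00 with spike-in scaling. Spike-in scaling, which moved the median of all probes by 0.50, turned Bach1 (0.15), Nfe2l1 (0.15) and Mafg at 120490566 and 120490321 (each 0.10). The slide as a block and slide 1 alone turned Nfe2l2 (−0.035) and Mafg at 120486465 (−0.36) and 120489919 (−0.59). Bach2 turned with quantile normalization (−0.053) and age (−0.84) at the BTB probe and with age (−0.015) at the other. Without each array the BTB probe ran from −0.32 to 0.68, Mafg at 120486465 from −0.12 to 0.48 and Mafg at 120489919 from −0.14 to 0.38. In the same runs, values that kept their sign but moved by over 1.5 times were Mafg at 120490321 (−0.71 to −0.16) and 120490566 (−0.66 to −0.18), Nfe2 (0.15 to 0.49), Nfe2l2 (0.19 to 0.41) and the other Bach2 probe (0.035 to 0.33). Other settings also moved values that kept their sign. Spike-in scaling gave, among others, 1.04 for Maff, 0.82 for Mafk, 0.84 for Nfe2 and 0.76 for Nfe2l2, and normexp correction gave 0.54 for Nfe2l2. Age as a covariate gave 0.90 for Maff, 0.16 for Mafk, 0.49 for Nfe2l2, −0.83 for Keap1, −0.87 for Bach1 and −0.59 for Nfe2l1. In that fit Mafg was at −0.93 (120490321), −0.85 (120490566), 0.42 (120489919) and 0.52 (120486465), and the median of all probes was −0.40. The cause of these turns and shifts was not tested. Probes near background (the BTB probe and the second Nfe2l3 probe) carry the least information, and the DIO_CR_WR arrays had the noisier background.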
